A study of Mus musculus with 6 samples.

Results

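10 genes of Nodal and bone morphogenetic protein (BMP) signalling were followed in mouse embryonic stem (ES) cells that lack Satb1. They are the ligand genes Bmp4 and Nodal, the genes of the secreted inhibitors Lefty1, Lefty2 and Nog, the genes of the inhibitory SMADs Smad6 and Smad7, and Id1, Id2 and Id3. They are 10 of the 19938 genes measured, and each was read by exactly 1 probe set whose annotation names that gene alone. The genes were chosen by the higher level of Bmp4 in the Satb1-/- arrays, a value of these same arrays, to ask whether the Id and Smad genes were higher with it. All values of the 10 genes therefore come from the contrast that led to the list, and they are given as a description with no p-value.

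BMP and Nodal ligands are secreted as dimers that bind receptor kinases at the cell surface. BMP receptors phosphorylate SMAD1, SMAD5 and SMAD9, and Nodal receptors, with the co-receptor encoded by Tdgf1, phosphorylate SMAD2 and SMAD3; both kinds enter the nucleus with SMAD4. Id genes are direct targets of BMP signalling, and their products bind E proteins and keep them off DNA. In mouse ES cells, BMP together with LIF is known to support self-renewal, and Nodal induces the genes of its own inhibitors, Lefty1 and Lefty2. SMAD6 and SMAD7 are feedback inhibitors, induced by the signals that they block.

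3 RNA samples of Satb1-/- cells and 3 of wild-type (WT) cells carried a biotin label and were read on 1-colour arrays. All cells carry a hygromycin resistance and thymidine kinase reporter in the Oct4 locus. They were grown for 3 days on irradiated feeder cells in medium with LIF, 15% serum and hygromycin, which leaves cells that express Oct4, and the feeders were then reduced by letting the suspension settle. The Satb1-/- arrays are numbered as clones 1-1, 1-2 and 2-1 and the WT arrays 1, 2 and 3. What the first clone number means is not given in the labels, so arrays 1-1 and 1-2 may share a clone, and n counts arrays. Nothing in the labels says that they stem from separate cultures, so errors and p-values cover only the spread between these arrays, which may be technical.

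Satb1, the targeted gene, encodes a chromatin-organising protein and read 4.38, 4.47 and 4.57 in the Satb1-/- arrays, against 5.12, 4.99 and 5.31 in the WT arrays, which was -0.67 as a difference (SE 0.12, limma adjusted p = 0.022, or 0.118 with the mean of Satb1-/- arrays 1-1 and 1-2 as 1 sample). Values are log2 expression after RMA, so a difference of 1 is a doubling, and levels of different genes cannot be ranked because their probes differ. Where a probe set is called the brightest of a list, that only says why its gene is named. The 8 markers of undifferentiated ES cells had a mean level of 10.03 to 10.05 in the Satb1-/- arrays and 9.68 to 9.91 in the WT arrays. Of these, 2 rose and none fell, the pluripotency factor genes Nanog (1.09, limma adjusted p = 0.00109) and Esrrb (0.56, limma adjusted p = 0.0435, or 0.171 with the mean of arrays 1-1 and 1-2), and 4 had an unadjusted p under 0.05, as did 10.5% of all genes. Pou5f1, the Oct4 gene that carries the reporter, read 9.82, 9.78 and 9.90 in Satb1-/- and 10.13, 9.9997 and 10.53 in WT (difference -0.39, limma adjusted p = 0.309, or -0.23 without WT replicate 3); it was picked out after its values were seen. Tdgf1, whose probe set was the brightest of the 8, is given below among the receptors. WT replicate 3 stood apart from the other 5 arrays on the second principal component (score -29.3, against 0.51 to 13.1). It was the highest of the 3 WT arrays for 9 of the 10 genes described here, all but Bmp4, and for 33.9% of all genes. Each member is therefore also given without it, and so is each other gene named here whose call that changed. On the first component WT replicate 1 lay farthest out (score -26.7, against -10.6 and -3.69 for WT replicates 2 and 3 and 12.7 to 15.5 for the Satb1-/- arrays), and limma gave WT replicates 1 and 3 the lowest array weights (0.46 and 0.445, against 1.08 to 1.99).

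Promoter windows of Bmp4, the gene with the largest difference in the list, and of the BMP target genes Smad6, Id2 and Id3 show the sequence around the start sites of the ligand gene and of its target genes. They are RefSeq windows of build GRCm38.p6, 250 bases before to 50 bases after the gene's start, written 5′ to 3′ on the gene's strand. The windows of 5 members were used in the search, these 4 and Nodal. Those of Smad7, Lefty1, Lefty2, Nog and Id1 were not searched. Whether they hold the same cores is therefore not known, and Smad6 cannot be set beside Smad7 in this respect. Capitals mark GTCT and GGCGCC on either strand, which are cores bound by SMAD proteins. GTCTAGAC, the palindromic SMAD site, holds GTCT on both strands.
Bmp4, chr14:46390620-46390919, minus strand: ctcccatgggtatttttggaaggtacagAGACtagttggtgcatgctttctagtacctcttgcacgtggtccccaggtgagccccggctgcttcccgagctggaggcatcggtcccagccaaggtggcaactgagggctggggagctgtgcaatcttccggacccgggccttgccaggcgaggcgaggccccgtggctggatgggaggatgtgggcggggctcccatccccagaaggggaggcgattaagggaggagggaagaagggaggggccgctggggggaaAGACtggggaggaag
Smad6, chr9:64022010-64022309, minus strand: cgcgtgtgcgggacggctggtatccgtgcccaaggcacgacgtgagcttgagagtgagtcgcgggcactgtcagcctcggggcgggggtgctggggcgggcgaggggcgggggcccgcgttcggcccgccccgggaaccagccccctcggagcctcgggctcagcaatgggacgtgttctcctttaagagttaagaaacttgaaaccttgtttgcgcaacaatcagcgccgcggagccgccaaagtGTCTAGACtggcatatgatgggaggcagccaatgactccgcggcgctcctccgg
Id2, chr12:25096043-25096342, minus strand: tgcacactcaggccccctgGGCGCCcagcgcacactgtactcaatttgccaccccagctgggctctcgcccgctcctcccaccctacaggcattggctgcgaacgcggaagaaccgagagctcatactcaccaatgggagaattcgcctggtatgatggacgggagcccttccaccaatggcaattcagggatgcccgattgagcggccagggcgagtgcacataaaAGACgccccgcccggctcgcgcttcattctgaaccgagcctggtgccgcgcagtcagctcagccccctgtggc
Id3, chr4:136143572-136143871, plus strand: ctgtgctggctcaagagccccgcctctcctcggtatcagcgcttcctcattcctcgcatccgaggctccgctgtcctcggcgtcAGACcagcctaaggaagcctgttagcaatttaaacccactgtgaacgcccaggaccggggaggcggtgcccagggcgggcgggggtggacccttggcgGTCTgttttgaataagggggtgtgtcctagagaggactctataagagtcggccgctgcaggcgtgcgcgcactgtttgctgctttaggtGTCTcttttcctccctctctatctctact
Of these windows, Smad6 held GTCTAGAC once, which 0.213% of the 32851 RefSeq windows of this length hold. Id2 held GGCGCC once, found in 11.9% of all windows. GTCT occurs in 88.0% of all windows, so its presence in Bmp4, Nodal, Smad6, Id2 and Id3 sets none of them apart. A match is a run of letters and does not show a bound site.

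Bmp4, the BMP ligand gene that gave rise to the list, was higher in every Satb1-/- array. It read 7.51, 7.11 and 7.34 in Satb1-/- replicates 1-1, 1-2 and 2-1, against 6.24, 6.08 and 6.24 in WT replicates 1, 2 and 3. The lowest Satb1-/- value lay above the highest WT value. The means were 7.32 ± 0.20 in Satb1-/- and 6.19 ± 0.09 in WT (SD, n = 3 each), a difference of 1.14 log2 units (SE 0.12) or a fold of 2.20. The difference was 1.16 without WT replicate 3 and lay between 1.04 and 1.24 when any one array was left out. Of the 10 genes, 1 (Bmp4) was among the genes past an adjusted p of 0.05 in limma's fit over all genes, as were 1.4% of all genes. The groups of 3 of the 10 did not overlap, as was the case for 15.1% of all genes. Of these 3, Bmp4 and Smad7 were higher, as 8.18% of all genes were without overlap, and Lefty1 was lower, as were 6.97%.

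**Figure D1:**
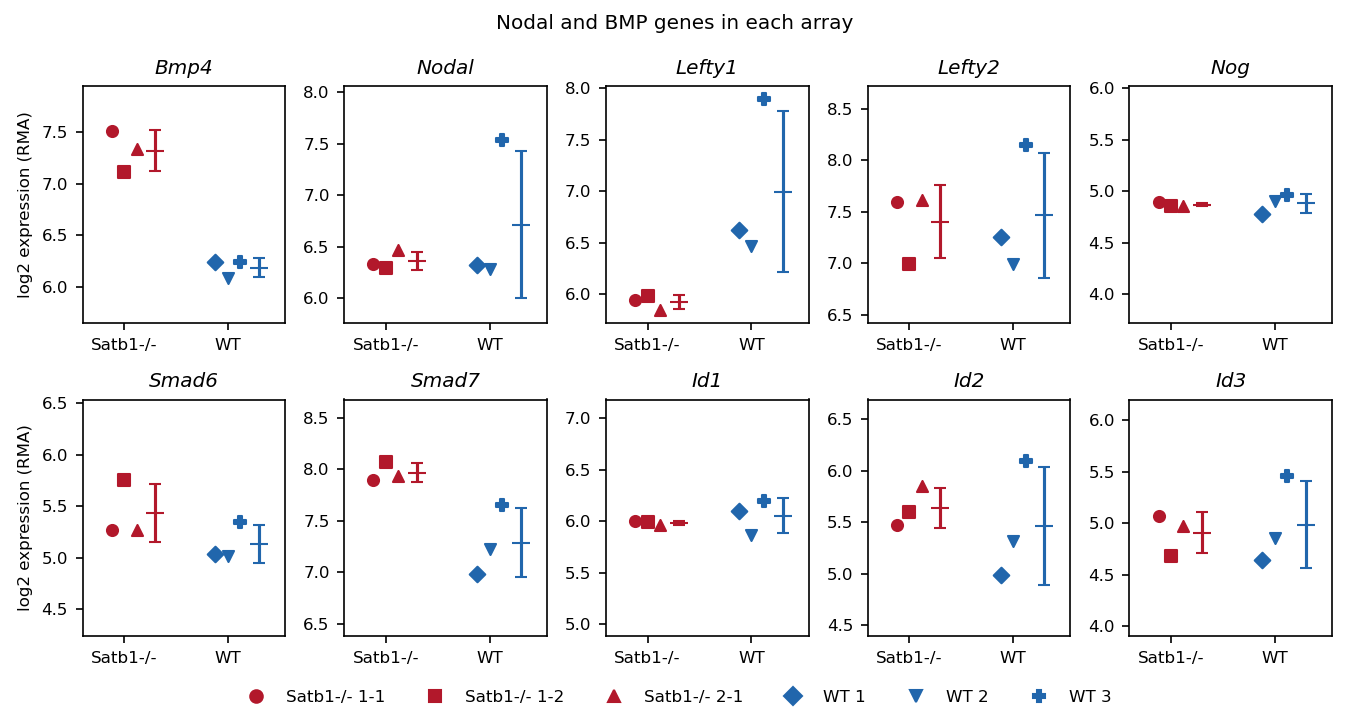
Log2 expression (RMA, vertical axes, each spanning 2.3 log2 units) of the 10 genes in each array, Satb1-/- in red and WT in blue; each array has its own point shape, and the bar beside the points is the mean with the SD over 3 arrays. Bmp4 and Smad7 lie higher and Lefty1 lower in all Satb1-/- arrays, and WT replicate 3 is the highest of the 6 arrays for Nodal, Lefty1, Lefty2, Nog, Id1, Id2 and Id3.

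With all 6 arrays, Id1 and Id3 had differences below 0 and Id2 one above 0, and the groups of each overlapped. Id1, whose product blocks E proteins and is a standard readout of BMP signalling, read 5.999, 5.993 and 5.961 in the Satb1-/- arrays, against 6.10, 5.86 and 6.20 in the WT arrays. All 3 Satb1-/- values lay between the lowest and the highest WT value, and the difference was -0.07 (SE 0.11). Id3, its close relative, read 5.07, 4.68 and 4.97 in Satb1-/- and 4.64, 4.86 and 5.46 in WT, a difference of -0.08 (SE 0.19). The groups overlapped fully, and the sign of Id3 turned without WT replicate 3 (0.16), without Satb1-/- replicate 1-2 (0.03) and with array weights (0.0056). That of Id1 turned without WT replicate 3 (0.0038) and with array weights (0.019).

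Id2, which also inhibits E proteins, read 5.48, 5.60 and 5.85 in the Satb1-/- arrays, against 4.99, 5.32 and 6.10 in the WT arrays. WT replicate 3 alone lay above the Satb1-/- values. The difference was 0.17 (SE 0.24) with all arrays and 0.49 without WT replicate 3, where the groups no longer overlapped. It turned to -0.07 without WT replicate 1. Without WT replicate 3 the groups of 5 of the 10 genes did not overlap (Bmp4, Lefty1, Smad6, Smad7 and Id2), against 32.1% of all genes.

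Id4, the remaining Id gene and no member of the list, was picked out here after its values were seen. It read 6.33, 6.61 and 6.60 in Satb1-/-, against 5.80, 6.21 and 6.04 in WT, a difference of 0.50 (limma adjusted p = 0.128). The groups did not overlap, but the difference did not pass the test. The E protein genes that Id products act on did not pass limma's threshold either (0 of 3). Of the 3, 0 had an unadjusted p under 0.05, against 10.5% of all genes. Tcf3 differed by 0.17, Tcf12 by 0.12 and Tcf4, added after its values were seen, by -0.16 (limma adjusted p = 0.697, 0.893 and 0.812).

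Smad7, the feedback inhibitor induced by both Nodal or TGF-beta and BMP signals, was higher in every Satb1-/- array. It read 7.89, 8.07 and 7.93 in Satb1-/- replicates 1-1, 1-2 and 2-1, against 6.98, 7.23 and 7.65 in WT replicates 1, 2 and 3. The groups did not overlap, and the WT arrays were spread more widely. The means were 7.96 ± 0.09 in Satb1-/- and 7.29 ± 0.34 in WT (SD, n = 3 each), a difference of 0.68 (SE 0.16) or a fold of 1.60. It was 0.86 without WT replicate 3 and 0.53 without WT replicate 1. Smad7 was not among the genes past the threshold with all arrays weighted alike. It was among them without WT replicate 3, with array weights and after a second quantile normalization, where 2.41%, 3.05% and 1.93% of all genes passed.

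Smad6, which mainly blocks BMP receptors, read 5.27, 5.76 and 5.27 in the Satb1-/- arrays, against 5.04, 5.02 and 5.34 in the WT arrays. Satb1-/- replicate 1-2 stood above the other Satb1-/- arrays, and WT replicate 3 lay above both of those. The difference was 0.30 (SE 0.15), or 0.40 without WT replicate 3 and 0.14 without Satb1-/- replicate 1-2. Of the 5 inhibitory SMAD and Id genes, Smad7 was thus the only one whose groups were apart with all 6 arrays.

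Lefty1, which encodes a secreted inhibitor of Nodal, was lower in every Satb1-/- array. It read 5.94, 5.99 and 5.85 in Satb1-/-, against 6.62, 6.47 and 7.89 in WT. The groups did not overlap, and the Satb1-/- arrays lay within 0.14 log2 units of each other while the WT arrays spanned 1.43. The means were 5.93 ± 0.07 in Satb1-/- and 6.99 ± 0.78 in WT (SD, n = 3 each), a difference of -1.07 (SE 0.30) or a fold of 0.477. Without WT replicate 3 it was -0.62, and Lefty1 was then among the 2.41% of genes past the threshold.

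Lefty2, the neighbouring gene of the same family on chromosome 1, did not share that pattern. It read 7.60, 6.996 and 7.62 in Satb1-/-, against 7.26, 6.99 and 8.15 in WT. The groups overlapped, and the difference was -0.06 (SE 0.27), or 0.28 without WT replicate 3. Lefty1 and Lefty2 are close relatives, and whether their probe sets detect each other's RNA was not tested.

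Nodal, the ligand gene that induces both Lefty genes, read 6.33, 6.29 and 6.47 in Satb1-/-, against 6.32, 6.28 and 7.54 in WT. WT replicate 3 lay 1.23 log2 units above the mean of WT replicates 1 and 2, and WT replicates 1 and 2 were level with the Satb1-/- arrays. The difference was -0.35 (SE 0.28) with all arrays and 0.06 without WT replicate 3. WT replicate 3 also exceeded the mean of WT replicates 1 and 2 by 1.35 for Lefty1, 1.03 for Lefty2, 0.95 for Id2, 0.71 for Id3, 0.54 for Smad7 and 0.07 for Bmp4. Its Nodal, Lefty and Id2 values were thus high together, while Bmp4 was not.

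Nog encodes noggin, a secreted protein that binds BMP4 and keeps it from its receptors. It read 4.89, 4.86 and 4.86 in Satb1-/- and 4.79, 4.90 and 4.96 in WT, all within 0.18 log2 units. The difference was -0.01 (SE 0.10), and its sign turned without WT replicate 3 (0.03), with each array centred (0.02) and after a second quantile normalization (0.0095). Nog and Id3 were the members whose probe sets read below the median level of all genes, which does not rank the amounts of their RNA.

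**Figure D2:**
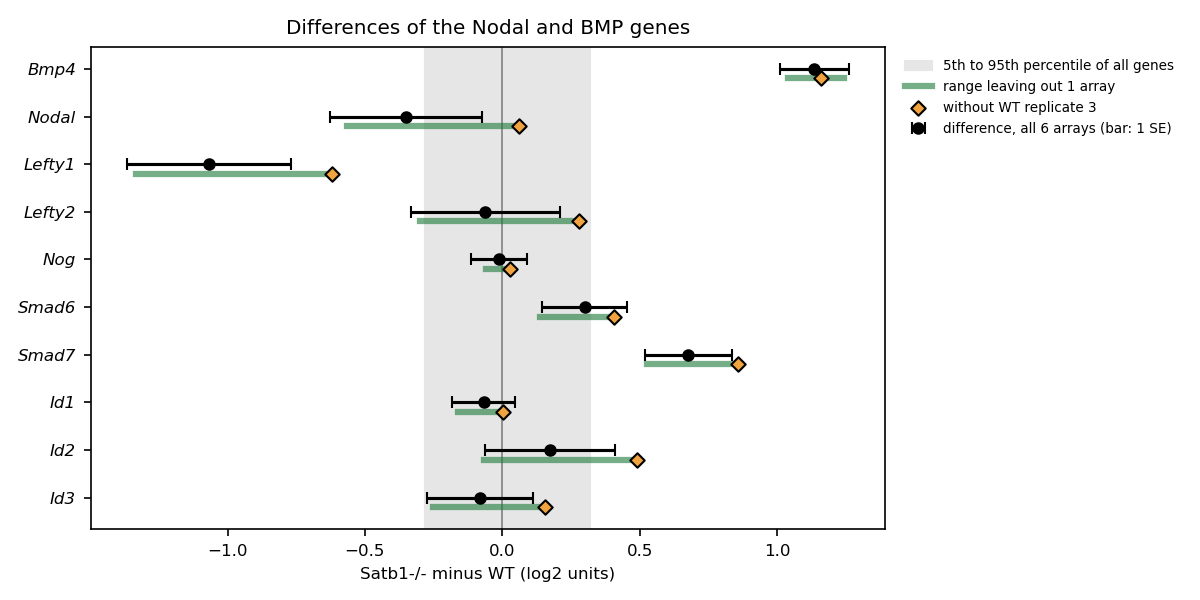
Differences, Satb1-/- minus WT in log2 units (horizontal axis), of the 10 genes: black points with a bar of 1 SE for all arrays, orange diamonds without WT replicate 3, green bars for the range when any one array is left out; the grey band holds the differences of all genes from the 5th to the 95th percentile (-0.28 to 0.32). Bmp4 and Smad7 stay right of the band and Lefty1 left of it under each omission, while Nodal, Lefty2, Nog, Id1, Id2 and Id3 cross 0.

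The other genes of the pathway were sorted by role into 8 lists, of which 87 of 93 genes were measured. Of these, 2 rose and 1 fell (limma adjusted p under 0.05 over all genes), where 0.923% of all genes rose and 0.476% fell. The median difference was -0.0013, against -0.0044 over all genes tested. An unadjusted limma p under 0.05 was reached by 10.5% of all genes, the share to set beside the list counts below. The results for Tbx3 and Gata2 were known when the lists were written, so that their presence is no independent count.

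Among 17 other ligand genes, 1 rose, and 5 had an unadjusted p under 0.05, as did 10.5% of all genes (median difference -0.05). Inhbb, which encodes the beta B subunit of activin and inhibin, read 6.14, 5.99 and 5.99 in Satb1-/-, against 5.58, 5.56 and 5.52 in WT, a rise of 0.49 (SE 0.10, limma adjusted p = 0.049). Both groups were well apart, but Inhbb missed the threshold when any one array was left out (limma adjusted p between 0.0571 and 0.227). Without WT replicate 3 its difference was 0.47 (limma adjusted p = 0.0571). With the mean of Satb1-/- arrays 1-1 and 1-2 as 1 sample, Inhbb had a limma adjusted p of 0.172. Inhba, of the activin beta A subunit, differed by -0.0027 (limma adjusted p = 0.999), or 0.24 without WT replicate 3 (limma adjusted p = 0.408). Gdf3, a Nodal-related ligand gene of ES cells, read 9.23, 8.98 and 9.01 in Satb1-/- and 8.16, 8.41 and 9.27 in WT (difference 0.46, limma adjusted p = 0.571), with WT replicate 3 again the highest. Without that array the difference was 0.79, the groups no longer overlapped and Gdf3 passed the threshold (limma adjusted p = 0.00857). Gdf3 lies on chromosome 6, as do Nanog (difference 1.09) and, in the other direction, Gata2 (-0.67). Whether the genes beside Gdf3 differ with it was not tested. None of the 5 genes of ligand-processing proteases passed limma's threshold, and 0 had an unadjusted p under 0.05. Pcsk6, which cuts Nodal precursors, differed by 0.29 and Bmp1, which cuts the BMP inhibitor chordin, by -0.06 (limma adjusted p = 0.607 and 0.928).

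None of 17 receptor and co-receptor genes passed limma's threshold (median difference 0.02). Of the 17, 2 had an unadjusted p under 0.05, against 10.5% of all genes. Bmpr1a, the type I BMP receptor gene, read 8.27, 8.22 and 8.38 in Satb1-/- and 8.03, 8.46 and 8.31 in WT (difference 0.02, limma adjusted p = 0.983). Bmpr2, its type II partner, differed by 0.18 (limma adjusted p = 0.681). Tdgf1, the Nodal co-receptor gene, differed by -0.06 (limma adjusted p = 0.927), with all 6 arrays between 11.5 and 11.6. Acvr2a, a type II activin receptor gene picked out after its values were seen, differed by 0.51 with groups that did not overlap and missed the threshold (limma adjusted p = 0.0831), which it passed without WT replicate 3 (0.57, limma adjusted p = 0.0495).

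None of 14 genes of SMADs and their nuclear partners passed limma's threshold (median difference 0.0023). Of the 14, 1 had an unadjusted p under 0.05, against 10.5% of all genes. Smad1, a BMP signal transducer, read 6.16, 5.82 and 5.93 in Satb1-/- and 6.39, 6.20 and 6.13 in WT (difference -0.27, limma adjusted p = 0.481). It lies on chromosome 8, whose 570 genes above the median level had a median difference of -0.29. Smad5, with the same role, differed by 0.04 (limma adjusted p = 0.968), or 0.17 without WT replicate 3. Foxh1, the DNA-binding partner of SMAD2 and SMAD3 in Nodal signalling, differed by -0.30 (limma adjusted p = 0.59), and 6.24 in WT replicate 3 stood above 5.61 and 5.64 in the other WT arrays; without it the difference was -0.10 (limma adjusted p = 0.71). Tgif1, a repressor of SMAD-driven transcription, differed by 0.41 and Skil, another such repressor, by 0.05, or -0.03 without WT replicate 3 (limma adjusted p = 0.207 and 0.953 with all arrays).

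None of 13 antagonist genes passed limma's threshold, and 0 had an unadjusted p under 0.05 (median difference 0.01). Grem1, of the BMP inhibitor gremlin, read 8.08, 7.52 and 7.9996 in Satb1-/- and 7.59, 7.31 and 8.53 in WT (difference 0.06, limma adjusted p = 0.981), or 0.42 without WT replicate 3 (limma adjusted p = 0.259). Twsg1, a modulator of BMP and chordin, differed by 0.27 (limma adjusted p = 0.587).

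Of 11 BMP target genes, 1 rose and 1 fell (median difference -0.04). An unadjusted p under 0.05 was reached by 4 of the 11, against 10.5% of all genes. Tbx3, a T-box factor gene of naive pluripotent cells, read 7.22, 7.48 and 7.23 in Satb1-/-, against 5.27, 5.76 and 6.12 in WT, a difference of 1.59 (SE 0.19, limma adjusted p = 0.00215). Gata2, a factor of blood and trophoblast, read 4.90, 5.17 and 4.99 in Satb1-/-, against 5.73, 5.47 and 5.86 in WT, a difference of -0.67 (SE 0.13, limma adjusted p = 0.0351). The groups of both genes were apart, in opposite directions. Tbx3 passed the threshold in every one of the 12 alternatives run; Gata2 missed it without WT replicate 1 or any one Satb1-/- array, and with the mean of arrays 1-1 and 1-2 as 1 sample (limma adjusted p = 0.115) or each array centred on its median (0.0547). Dusp9, a phosphatase of ERK that BMP signalling induces in mouse ES cells, differed by -0.04 (limma adjusted p = 0.987), or 0.32 without WT replicate 3 (limma adjusted p = 0.446).

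Of 7 Nodal and activin target genes, none passed limma's threshold (median difference 0.04). An unadjusted p under 0.05 was reached by 1 of the 7, against 10.5% of all genes. Pmepa1, a feedback inhibitor of SMAD signalling, differed by 0.04 and Gsc, a factor of the organiser, by 0.09 (limma adjusted p = 0.981 and 0.898). Without WT replicate 3 they differed by 0.23 and 0.14 (limma adjusted p = 0.396 and 0.632). Eomes, a T-box factor of the primitive streak and trophoblast, picked out after its values were seen, read 5.12, 5.55 and 5.24 in Satb1-/- and 4.73, 4.74 and 4.79 in WT (difference 0.55, limma adjusted p = 0.068).

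**Figure D3:**
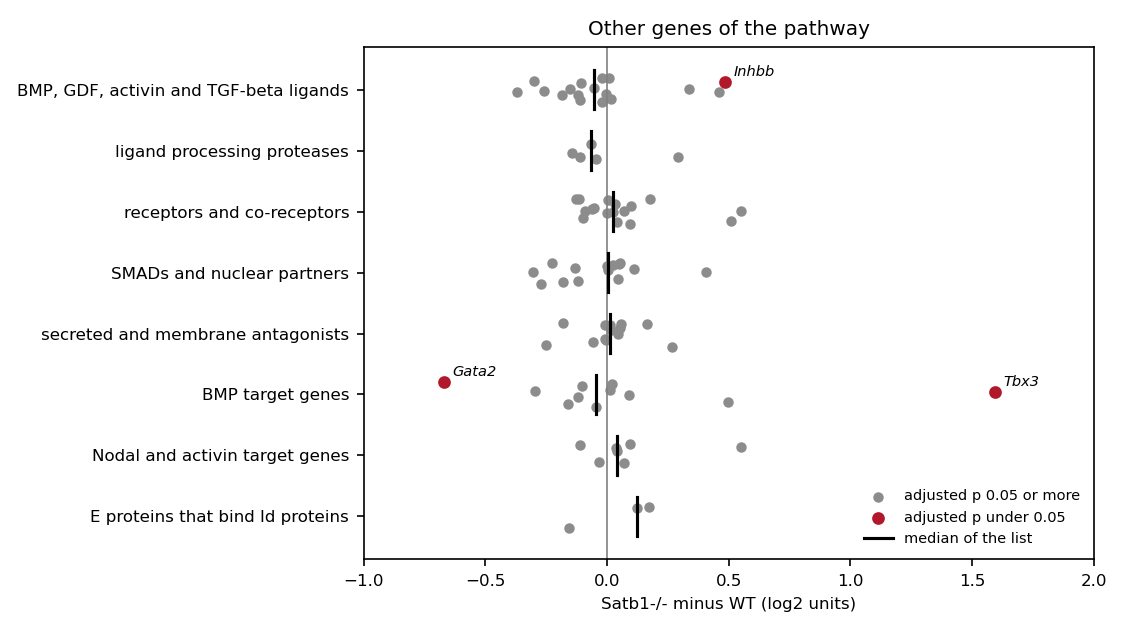
Differences, Satb1-/- minus WT in log2 units (horizontal axis), of the 87 other pathway genes in 8 lists by role; each point is a gene, spread vertically for legibility, red where the limma adjusted p was under 0.05, and the black line is the list's median. Inhbb and Tbx3 lie to the right and Gata2 to the left, and the medians lie between -0.06 and 0.12.

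Markers of other cells were read beside these results. RNA of fewer cells of a type and less RNA per cell cannot be told apart in such samples. The 12 genes that mark feeder fibroblasts had a mean level of 6.95, 6.67 and 6.89 in Satb1-/- replicates 1-1, 1-2 and 2-1, against 6.60, 6.78 and 6.37 in WT replicates 1, 2 and 3. None of the 12 passed limma's threshold, and 3 had an unadjusted p under 0.05, against 10.5% of all genes. A positive difference was seen in 11 of the 12, and the median was 0.16. Acta2 had the brightest probe set of them (difference 0.13, limma adjusted p = 0.898). Among the Satb1-/- arrays, Bmp4 and the feeder list were both highest in replicate 1-1 and lowest in 1-2; among the WT arrays, the feeder list was highest in replicate 2, where Bmp4 was lowest. The WT arrays differed by up to 0.42 in the feeder list and by up to 0.16 in Bmp4. The part of feeder cells in the difference of Bmp4 was not tested.

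The 9 trophectoderm markers had a mean level of 5.35, 5.46 and 5.36 in Satb1-/- replicates 1-1, 1-2 and 2-1, against 5.96, 5.998 and 6.73 in WT replicates 1, 2 and 3. WT replicate 3 was the highest, as it was for Nodal, Lefty1, Lefty2, Nog, Id1, Id2 and Id3. Of the 9, the keratin genes Krt8 (-2.72) and Krt18 (-2.48) fell and none rose (limma adjusted p = 0.00209 and 0.00514). An unadjusted p under 0.05 was reached by 5 of the 9, against 10.5% of all genes. Krt7, a keratin gene picked out after its values were seen, differed by -1.57 (limma adjusted p = 0.0716) and passed the threshold without WT replicate 3 (-1.03, limma adjusted p = 0.00412). The transcription factor gene Tfap2c, whose probe set was the brightest of the 9, differed by 0.33 in the other direction with groups that did not overlap (limma adjusted p = 0.246). Cdx2, a defining factor of that layer also picked out afterwards, read 4.33, 4.48 and 4.29 in Satb1-/- and 4.54, 4.42 and 4.84 in WT (difference -0.23, limma adjusted p = 0.622, or -0.11 without WT replicate 3). Gata3, Elf5, Hand1 and Ascl2, the rest of the list and also picked out afterwards, differed by -0.16, 0.07, -0.31 and -0.48. None of them passed limma's threshold, and the keratin genes had the largest differences of the list. The part of trophectoderm cells in the lower Lefty1 was not tested. In the list of 10 extraembryonic endoderm markers, levels were 4.57 to 4.72 in Satb1-/- and 4.52 to 4.78 in WT, and in that of 5 mesoderm and primitive streak markers 4.39 to 4.67 and 4.36 to 4.58. None of these 15 genes passed limma's threshold. In each list 1 had an unadjusted p under 0.05, against 10.5% of all genes. The brightest probe sets of these lists were those of Pdgfra (0.53) and Gsc.

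Earlier results of these data showed chromosome stretches whose genes differ together, so each member was set beside the 10 measured genes on either side of it in RefSeq order. For Bmp4 on chromosome 14, those 20 genes had a median difference of 0.02 and a range of -0.21 to 0.52. None passed limma's threshold, and 2 had an unadjusted p under 0.05, as did 10.5% of all genes. For Smad7 on chromosome 18 the median was 0.07 (range -0.39 to 0.33), and for Lefty1 on chromosome 1 it was 0.03 (range -0.31 to 0.27), with 1 such gene each and none past the threshold. Each of these members thus differed by more than all of its 20 neighbours in the same direction. They are the members whose groups did not overlap, and Bmp4 gave rise to the list. Genes singled out for a large difference tend to exceed their neighbours, so this is a description. Whether a shift shared with neighbours has a part was not tested. The neighbours of Nodal, Lefty2, Smad6, Id1, Id2 and Id3 had medians between -0.01 and 0.04. None of these neighbours passed limma's threshold, and 1 to 3 of each 20 had an unadjusted p under 0.05. The members Lefty1 and Lefty2 are counted among each other's 20 neighbours.

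For Nog on chromosome 11 the 20 neighbours had a median difference of 0.04, with 12 above 0. Of the 20, 2 rose, 2210409E12Rik (1.95, limma adjusted p = 0.00651) and Elobl (1.58, limma adjusted p = 0.014). An unadjusted p under 0.05 was reached by 9 of the 20, against 10.5% of all genes. Of the 14 above the median level of all genes, 10 had a positive difference, and the median of the 14 was 0.35. Nog itself differed by -0.01.

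**Figure D4:**
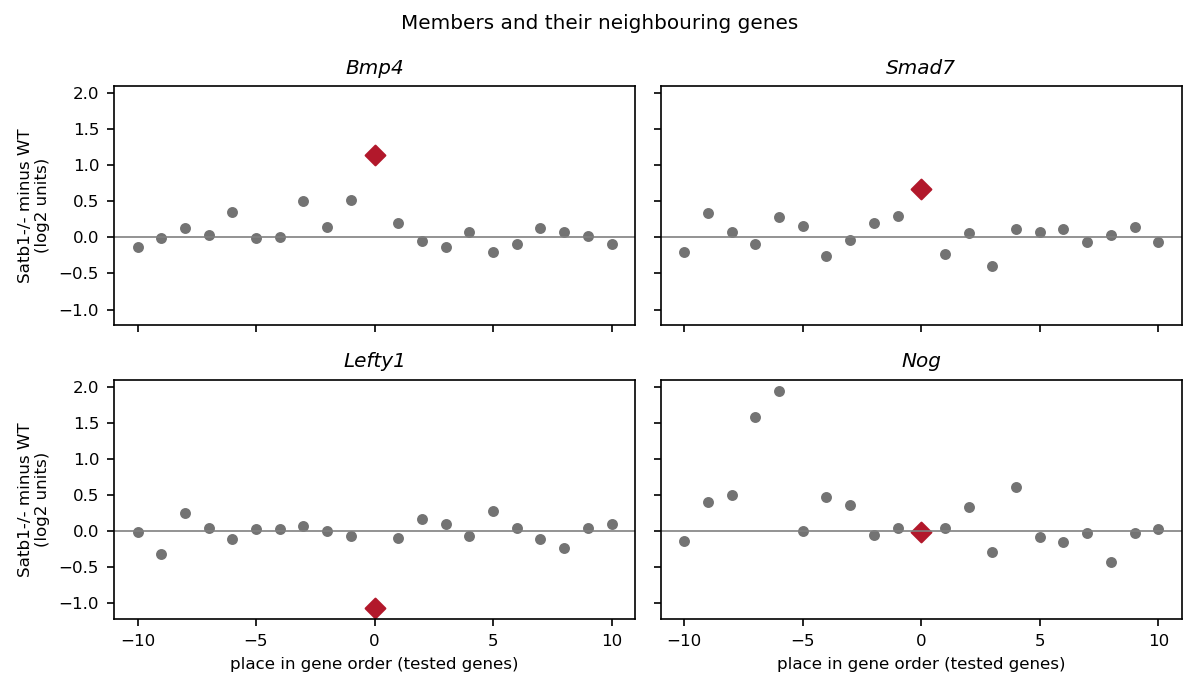
Differences, Satb1-/- minus WT in log2 units (vertical axes), of Bmp4, Smad7, Lefty1 and Nog (red diamonds at place 0) and of the 10 measured genes on each side (grey points, by place in gene order). Bmp4, Smad7 and Lefty1, the members whose groups did not overlap, lie beyond their neighbours, as genes singled out for a large difference tend to. Nog lies near 0, with genes of positive difference on both sides and the 2 highest on the left.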

How the data were processed

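The deposited table gives log2 expression for every probe set on every array, which the authors made with RMA per the submitters' processing notes. Neither its version nor its settings were given in the sources used here, and the genome build behind the array was not given either. The table holds 35557 probe sets on 6 arrays, with array medians between 4.69 and 4.85. The number of arrays, rather than a read depth, sets the precision. Of the probe sets, 21789 carry exactly 1 gene symbol in the platform annotation, 1621 several and 12147 none. For each gene the probe set brightest on average across the 6 arrays was kept, which left 19938 genes, 19856 of them found by Entrez ID in the RefSeq genes of GRCm38.p6, used for chromosome and gene order.

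Satb1-/- and WT arrays were compared with limma 3.58.1 in R 4.3.3 (lmFit, then eBayes) without covariates and with dim genes kept, with Benjamini-Hochberg adjustment over all genes and a threshold of 0.05. SE is limma's moderated standard error. The members and the lists were chosen with earlier results of these data known. Besides all members and Satb1, the text names from each pathway list the genes past the threshold, the 2 brightest and 7 fixed genes (Smad1, Smad5, Bmpr1a, Bmpr2, Tdgf1, Foxh1 and Gdf3). It also names from each marker list the brightest and those past the threshold, called neighbours, and the 5 profiles nearest to Bmp4. Krt7, Cdx2, Gata3, Elf5, Hand1, Ascl2, Pou5f1, Tcf4, Id4, Acvr2a and Eomes were picked out after their values were seen. Alternatives were leaving out each array, the mean of Satb1-/- arrays 1-1 and 1-2, the mean of probe sets, a second quantile normalization, centring, a filter on dim genes, array weights and a minimum difference of 1.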

Additional observations from a re-analysis of the deposited data

How the results depend on the processing

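Bmp4 stayed the only member past the threshold in 9 of 12 alternatives; 2 members were higher without WT replicate 3, after a second quantile normalization and with array weights (Bmp4 and Smad7), and 1 (Lefty1) was lower without WT replicate 3, so that the omission of single arrays left 1 to 2 higher and 0 to 1 lower. The members were chosen with the values of this contrast known, so these counts of members are a description and no independent support. The pathway lists held 2 higher and 1 lower gene, 1 and 0 with the mean of Satb1-/- arrays 1-1 and 1-2, 4 higher with array weights, 0 lower with each array centred, and 1 to 3 higher and 0 to 1 lower without 1 array. Over all genes, 184 were higher and 95 lower; the counts were 90 and 27 with the mean of arrays 1-1 and 1-2, 373 and 235 with array weights and 59 and 17 with a difference of at least 1. They were 236 and 148 after a second quantile normalization and 159 and 47 with each array centred. With single arrays omitted the counts were 74 (without Satb1-/- replicate 2-1) to 356 higher and 19 (without Satb1-/- replicate 1-2) to 124 lower genes, the most without WT replicate 3. The cause of these shifts was not tested. No paired analysis was possible because the groups share no replicate numbers. The signs of Nodal, Lefty2, Nog, Id1, Id2 and Id3 turned in at least 1 alternative, those of Lefty2, Id1 and Id3 also with array weights (0.225, 0.019 and 0.0056). Nog and Id3 could not be tested among genes above the median level. No background level of the arrays was used here, so what dim signal limits was not tested.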

Other observations

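The 5 genes whose 6-array profile lay nearest to that of Bmp4, each profile centred on its own mean, were Rmnd5b (root-mean-square distance 0.084 log2 units), Wbp11 (0.092), Erc1 (0.094), Kdm5a (0.118) and Ctnnal1 (0.13). All 5 were higher in Satb1-/-, by 1.04, 1.09, 1.20, 1.16 and 0.99, and lie on chromosome 11 (Rmnd5b), 6 (Wbp11, Erc1 and Kdm5a) and 4 (Ctnnal1), none on chromosome 14 with Bmp4. Wbp11 encodes a splicing factor and Kdm5a a histone H3 lysine demethylase. They were chosen for their likeness over the same 6 arrays, so their differences are a description. Among the members, Smad7 lay nearest to Bmp4 (0.344, rank 218 among all genes), and Lefty1 farthest (1.19).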
